A study of Mus musculus with 6 samples.

Results

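The genes of the mitochondrial ribosomal proteins were described across sorted cells of B16-F10, a mouse melanoma line that makes melanin. Members were taken by name alone, as the rows of the count table whose mouse symbol is Mrpl or Mrps followed by a number and at most 1 letter. That gave 76 of 18324 gene rows, of which 47 carry the large-subunit symbol Mrpl and 29 the small-subunit symbol Mrps. The groups were high-pigmented and low-pigmented cells of that line, grown in DMEM with serum and separated by flow cytometry on the light scatter of melanin. Each group had 3 libraries, and the labels name no genotype, added agent or time that sets the groups apart. Every high-pigmented library shares the ending of its name with 1 low-pigmented library: 16-9-15 (called pair 1 here), 18-8-14 (pair 2) and 1-9-14 (pair 3). What the ending stands for is not stated, nor whether the libraries came from separate cultures, so a p-value measures the spread between these libraries, which may be technical.

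The mitochondrial ribosome translates the few messenger RNAs that mitochondrial DNA encodes, all of them for subunits of the oxidative phosphorylation complexes. Its ribosomal RNAs come from mitochondrial DNA too, whereas its proteins are encoded in the nucleus, made on cytosolic ribosomes and imported. The small subunit holds the messenger and the decoding site, and the large subunit forms the peptide bonds. One set of the proteins has bacterial counterparts and the other is specific to mitochondria. In melanocytes and melanoma, mitochondrial biogenesis is linked to pigment-cell identity, since the lineage regulator MITF is known to raise the mitochondrial coactivator PGC1α.

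Levels are given as normalised CPM, the counts of a gene scaled to a common library size after TMM normalisation. The cells carried the RNA of their lineage: all 7 melanocyte markers checked had counts, with a summed level of 4443 to 20733 CPM over the 6 libraries. *Dct* alone made up 4002 CPM of the lowest sum and 14178 CPM of the highest. *Tyr* was the weakest, with 2 counts (1.16 CPM) with high pigmentation in pair 2. Among markers of other cell types, *Ptprc*, *Cd3e*, *Cdh5*, *Kdr*, *Krt5*, *Krt14* and *Dcn* had no row in the table. The summed level of the markers with a row reached at most 19.2 CPM for the immune, 11.6 for the endothelial and 21.0 for the fibroblast list, each with high pigmentation in pair 2, and was below that for the epithelial list. The table gives 3819605 to 7311131 gene counts a library. The pair 2 libraries stood apart: the transcript RP23-81C12.3 took 53.9% of the counts of the high-pigmented and 27.1% of the low-pigmented one, against 3.54% to 5.03% elsewhere. Their libraries held 10620 and 12778 genes with counts, against 14130 to 15002 in the other 4. Results are therefore given with and without pair 2.

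Mitochondrial ribosomal protein transcripts were readily detected. The median member had a mean of 29.9 CPM, and 68 of the 76 members reached a mean of 10 CPM. Libraries made from the 3′ end give about 1 fragment site per transcript, so CPM was not divided by length. In bulk RNA, fewer cells that express a gene and less RNA per cell cannot be told apart. The highest large-subunit members were *Mrpl13*, *Mrpl33* and *Mrpl12*, with means of 194.5, 152.2 and 151.1 CPM. The highest small-subunit members were *Mrps26*, *Mrps6* and *Mrps33*, with 158.9, 105.9 and 104.2 CPM. The order among *Mrpl33* and *Mrpl12*, and among *Mrps6* and *Mrps33*, rests on differences smaller than their spread between libraries.

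**Figure D1:**
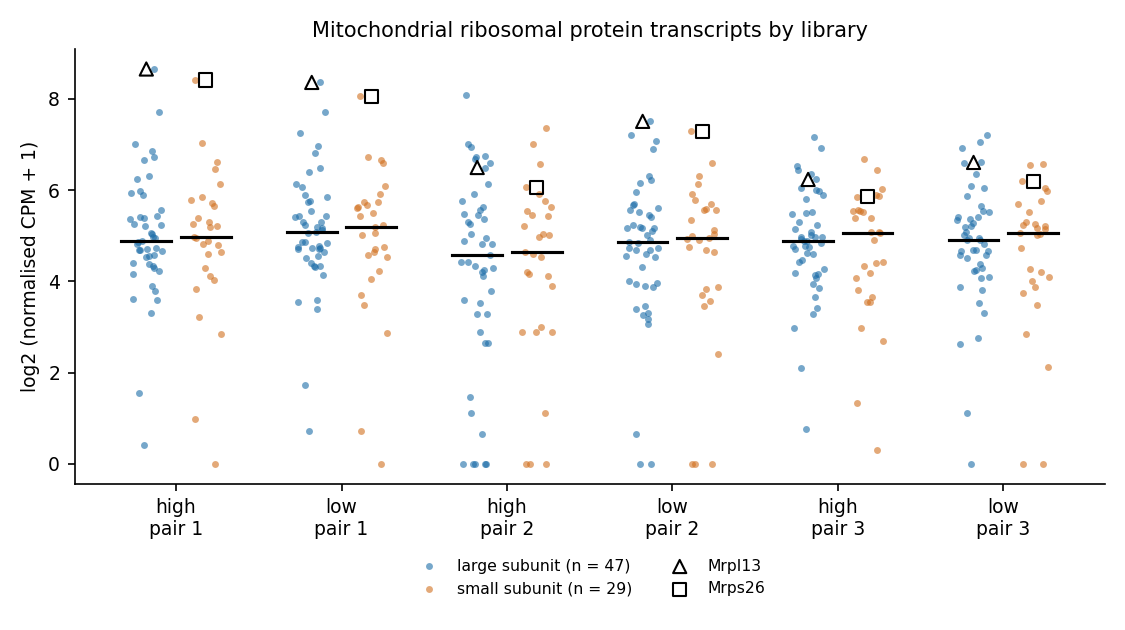
Each point is 1 member in 1 library, on the y axis as log2 of normalised CPM plus 1, with the large subunit in blue and the small subunit in orange; black bars are medians over all members of a subunit. The open triangle and square repeat the values of Mrpl13 and Mrps26, which are the highest of their subunits in both pair 1 libraries and lie lower in pair 3; points at 0 are most frequent in pair 2.

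Of the 76 members, 73 passed the filter on low counts, 46 of the large and 27 of the small subunit. The others were *Mrpl53*, *Mrps18b* and *Mrps34*. For pairs 1, 2 and 3 in turn, *Mrps18b* had 6, 0 and 13 counts with high and 4, 0 and 0 with low pigmentation. *Mrpl53* had 2, 0 and 6, and 4, 0 and 0. *Mrps34* had 2 counts in all, in the high-pigmented library of pair 3. In the GENCODE vM21 annotation of GRCm38, exons of a gene on the opposite strand cover 100% of the last 500 transcript bases of *Mrps34* (*Mapk8ip3*) and *Mrps18b* (*Gm16279*). An overlapping gene on the same strand (*Gm42688*) covers 100% of those of *Mrpl53*. The lowest member tested, *Mrpl24*, at a mean of 1.84 CPM, is likewise covered over 100% by *Rrnad1* on the opposite strand. *Mrps25* has the same full overlap, with *Nr2c2*, and was counted at a mean of 64.9 CPM. Whether the counting used strand is not stated, so reads of these overlapping partners cannot be told apart, and their part in the low counts was not tested.

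Among tested members, counts of 0 occurred only in pair 2. The high-pigmented library had 0 counts for *Mrpl1*, *Mrpl39*, *Mrpl47*, *Mrpl54* and *Mrps11*, 5 of 73 members, where 20.3% of all genes tested were at 0. The low-pigmented library had 0 for *Mrpl46* and *Mrps11*, 2 of 73, where 7.54% of genes were. A count of 0 allows a level of up to 1.75 CPM in the first of these libraries and 0.858 CPM in the second, taking 3 counts as the limit and for counting error only.

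Grouped by symbol, the large and small subunits kept a similar proportion in every library, at both pigmentation levels. In high-pigmented cells the 47 large-subunit transcripts summed to 2283, 1865 and 1754 CPM (pairs are given in the order 1, 2, 3 throughout). In low-pigmented cells they summed to 2333, 1824 and 1810 CPM. The 29 small-subunit transcripts summed to 1390, 1034 and 967 CPM, and to 1347, 1064 and 983 CPM, in the same order. Pair 1 was the highest for both subunits, and the pigmentation groups overlapped for both.

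The ratio of the large sum to the small sum was 1.64, 1.80 and 1.81 in high-pigmented and 1.73, 1.71 and 1.84 in low-pigmented cells. The means were 1.75 ± 0.10 and 1.76 ± 0.07 (SD, n = 3 each), so the groups differed by less than the spread between libraries. Within pairs the log2 ratio of high to low was -0.08, 0.07 and -0.02, without a common direction. *Mrpl13* and *Mrps26*, the highest members of each subunit, carried much of the spread. Without both, a choice made after seeing the data, the ratios were 1.79, 1.83 and 1.84 in high-pigmented and 1.85, 1.81 and 1.88 in low-pigmented cells (1.82 ± 0.03 and 1.85 ± 0.04, SD, n = 3 each).

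Symbols do not always name the place of a protein. *Mrps30* and *Mrps18a* encode proteins of the large subunit in mammalian structures, and *Mrps36* encodes KGD4, a component of the 2-oxoglutarate dehydrogenase complex. With those placed by structure, the ratio ran from 1.82 to 2.25 over the 6 libraries and remained overlapping between the groups. The highest value was that of the high-pigmented library of pair 2, where *Mrps30* stood at 93.7 CPM against 32.6 to 46.9 CPM in the other libraries.

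**Figure D2:**
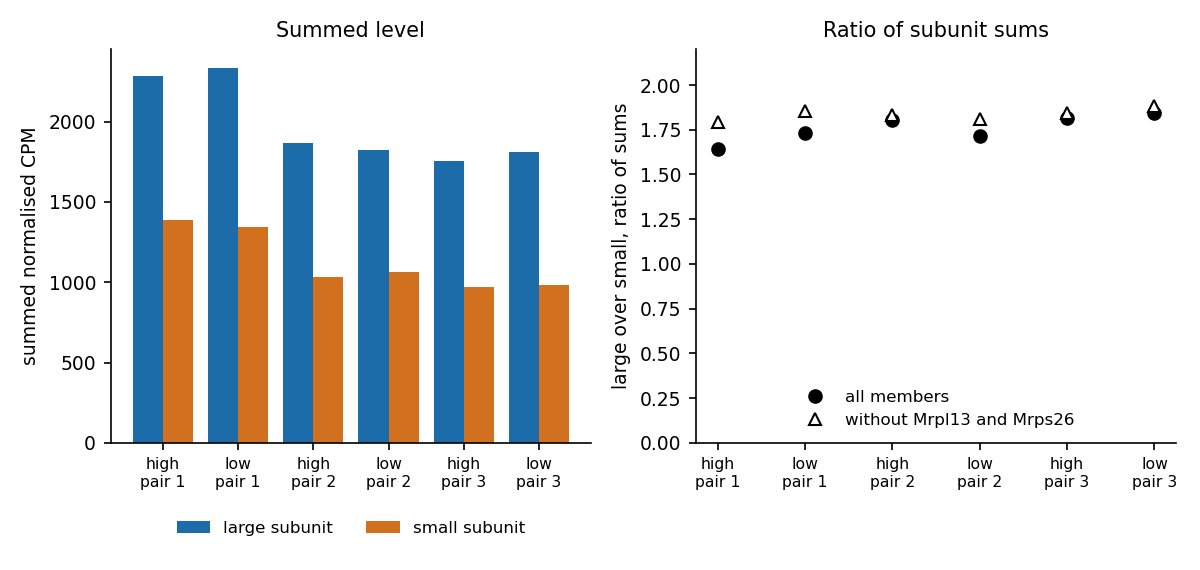
Left, the summed normalised CPM of the 47 large-subunit (blue) and 29 small-subunit (orange) members in each library. Right, the ratio of those sums for all members (circles, 1.64 to 1.84) and without Mrpl13 and Mrps26 (triangles, 1.79 to 1.88); high- and low-pigmented libraries overlap in both.

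High- and low-pigmented cells did not differ detectably in any mitochondrial ribosomal protein transcript when all 6 libraries were compared. No member passed an adjusted p of 0.05 in edgeR's quasi-likelihood test (0 of 73), nor did any gene of the 11324 tested (0.0%). At an unadjusted p under 0.05 the count was again 0 of 73, where 0.336% of all genes were; DESeq2 and limma-voom also called 0 members, with 0 of 73 members at an unadjusted p under 0.05 in either (1.18% and 0.221% of all genes). The smallest p among members was 0.145 (edgeR), for *Mrpl54*. The biological coefficient of variation of this fit was 71.6%, a spread at which small changes were not detectable. The median log2 fold change, high over low, was -0.06 for the large and -0.02 for the small subunit, against -0.04 for all genes tested. Of the 73 members, 28 lay above 0, where 47.0% of all genes did; in pairs 1 and 3 alone it was 36 of 73, where 50.1% did. With the pairs as a block, again 0 members were called (0.0% of all genes) and 0 had an unadjusted p under 0.05 (1.88% of all genes); the smallest adjusted p in edgeR was 0.927.

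One member, *Mrps15*, was lower in high-pigmented cells once pair 2 was left out. In pairs 1 and 3, with the pairs as a block, it fell by 0.88 ± 0.22 (SE) on the log2 scale (edgeR adjusted p = 0.0467), the 1 call among 73 members where 1.3% of 11906 genes were called and 0.37% were called lower. In either direction that is 1.37% of members, close to the share of all genes. *Mrps15*, on chromosome 4, encodes the counterpart of bacterial S15, a small-subunit protein that binds the ribosomal RNA directly and sits by the bridge to the large subunit. Its level was 28.6, 58.8 and 17.1 CPM in high-pigmented cells. In low-pigmented cells it was 44.1, 46.3 and 37.1 CPM. Pairs 1 and 3 were lower in high-pigmented cells, by -0.62 and -1.10 (log2), while pair 2 was higher by 0.34, and the groups overlap. Over all 6 libraries its log2 fold change was -0.30 ± 0.52 (SE; unadjusted p = 0.584, edgeR). With the pairs as a block over all 6 libraries its adjusted p was 0.927 in edgeR and 0.183 in limma-voom with sample weights. The fit on pairs 1 and 3 rests on 4 libraries, with a biological coefficient of variation of 19.5%. Its next smallest adjusted p among members was 0.267, of *Mrps9*.

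At an unadjusted p under 0.05 in that same fit were *Mrpl3*, *Mrpl12*, *Mrpl37*, *Mrpl54*, *Mrps9* and *Mrps15*, all with lower values in high-pigmented cells. These are 6 of 73 members, or 8.22%, where 12.1% of all genes had such a p; the share among members is thus below the background. *Mrps9* and *Mrpl3* had the most even within-pair differences of the 6. *Mrps9* encodes the counterpart of bacterial S9, whose tail reaches the peptidyl-site tRNA. It stood at 30.6, 23.9 and 15.8 CPM in high-pigmented and 41.8, 39.5 and 25.4 CPM in low-pigmented libraries, lower in each pair by log2 differences of -0.45, -0.72 and -0.68. *Mrpl3* encodes the counterpart of bacterial L3, near the peptidyl transferase centre. It stood at 25.5, 8.73 and 17.0 CPM against 35.0, 13.7 and 27.2 CPM, with differences of -0.45, -0.63 and -0.67. Both genes were lower in all 3 pairs, but for each the groups overlap because the pairs differ in level. Their log2 fold changes over all 6 libraries were -0.60 ± 0.48 for *Mrps9* and -0.56 ± 0.62 for *Mrpl3* (SE), and neither passed the test in any fit run.

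The promoters of these members, and of *Mrps26*, which had the highest fold between pairs 1 and 3, are shown for their make-up. They are the 250 bases before the gene start in RefSeq (GRCm38.p6, the build the submitters' processing notes name), 5′ to 3′ on the gene's strand. They lie at chr4:126046678-126046927 (*Mrps15*), chr1:42850983-42851232 (*Mrps9*), chr9:105053018-105053267 (*Mrpl3*) and chr2:130563507-130563756 (*Mrps26*), each on the plus strand. Capitals mark CCGGAAG, the core that ETS-family factors (GABP among them) bind, or its reverse complement.
Mrps15: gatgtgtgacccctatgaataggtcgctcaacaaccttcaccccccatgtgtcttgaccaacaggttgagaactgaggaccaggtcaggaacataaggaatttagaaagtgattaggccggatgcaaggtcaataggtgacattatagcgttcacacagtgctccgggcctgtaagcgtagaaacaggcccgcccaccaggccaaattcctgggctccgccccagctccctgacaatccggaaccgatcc
Mrps9: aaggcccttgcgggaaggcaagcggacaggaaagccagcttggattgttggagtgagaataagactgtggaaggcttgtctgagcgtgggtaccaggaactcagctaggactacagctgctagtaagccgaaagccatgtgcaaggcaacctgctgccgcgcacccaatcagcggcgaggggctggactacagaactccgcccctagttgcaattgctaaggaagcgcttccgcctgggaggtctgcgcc
Mrpl3: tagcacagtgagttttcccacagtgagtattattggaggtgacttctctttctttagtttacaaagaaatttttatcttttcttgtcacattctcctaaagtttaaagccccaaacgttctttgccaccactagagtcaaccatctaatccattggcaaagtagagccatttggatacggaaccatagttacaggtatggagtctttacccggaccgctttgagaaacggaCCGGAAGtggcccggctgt
Mrps26: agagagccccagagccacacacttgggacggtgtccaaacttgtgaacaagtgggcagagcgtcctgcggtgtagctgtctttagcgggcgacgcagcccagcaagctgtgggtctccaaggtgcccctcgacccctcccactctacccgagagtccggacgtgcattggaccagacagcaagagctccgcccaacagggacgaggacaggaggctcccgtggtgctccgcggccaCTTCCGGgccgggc
The core lies 19 to 13 bases before the start in *Mrpl3* and, reversed, 14 to 8 bases before it in *Mrps26*; the *Mrps15* and *Mrps9* windows hold none of the motifs searched. By GENCODE vM21, which starts both genes further upstream, the cores of *Mrpl3* and *Mrps26* lie inside the first exon.

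Of the 76 members, 67 had a RefSeq promoter, in 73 windows. The ETS core was in 23.3% of member windows, against 14.1% of the windows of genes tested and 6.91% of all 32851. The motif of NRF1, a nuclear respiratory factor (GCGCA, any base, then GCGC), was in 9 of the 73 windows, against 8.53% and 3.74%. By subunit, it was in 8 of 46 large-subunit windows and 1 of 27 small-subunit windows (*Mrps21*). AAGATGGC, which YY1 binds, was in 5.48% (2.13% and 1.56% in the same backgrounds), and the E-box CACGTG, which MITF and MYC bind among others, in 9.59% (8.69% and 6.02%). For the large and small subunit in turn, the ETS core was in 23.9% and 22.2% of windows. AAGATGGC was in 4.35% and 7.41%, and the E-box in 13.0% and 3.7%. Both strands were searched, no difference between these shares was tested, and a match describes letters, not binding.

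**Figure D3:**
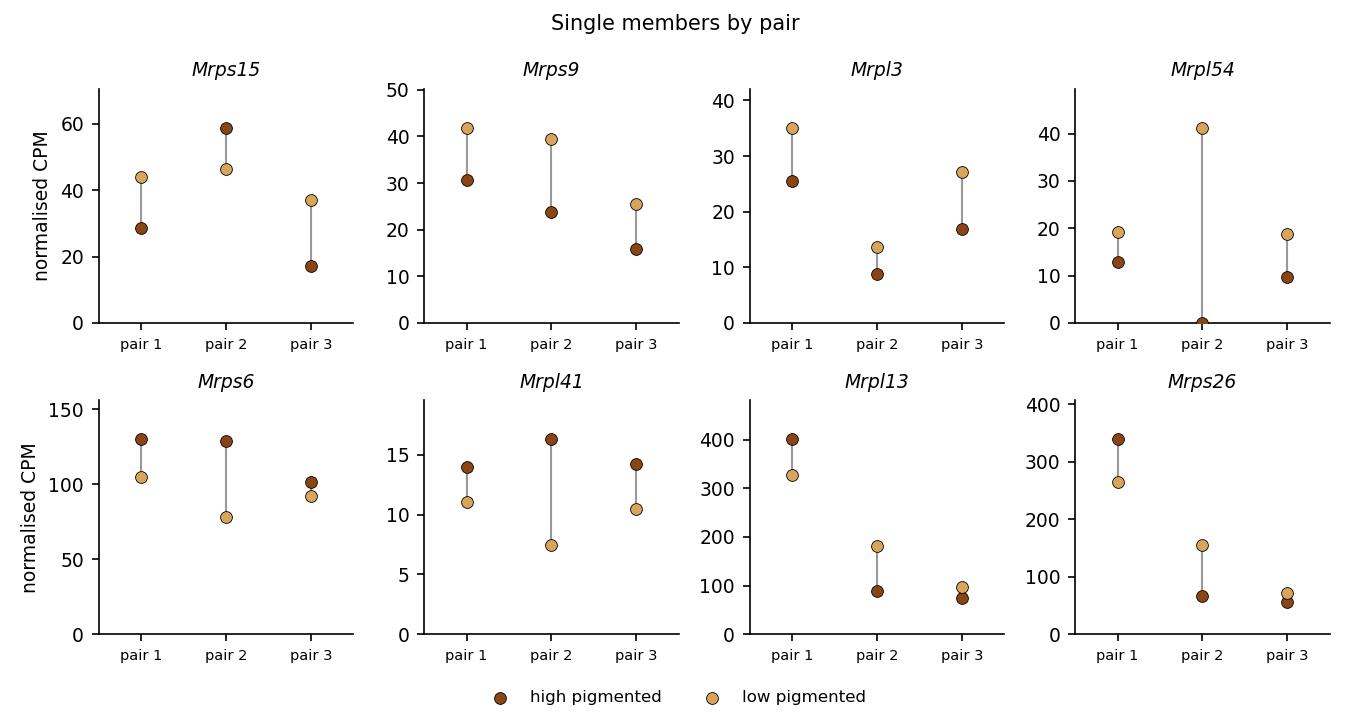
Normalised CPM (y axis, from 0, scale differing by panel) of 8 members in each pair (x axis), high-pigmented in dark brown and low-pigmented in tan, joined by a line. Mrps9, Mrpl3 and Mrpl54 are lower and Mrps6 and Mrpl41 higher in high-pigmented cells in each pair, Mrps15 changes side in pair 2, and Mrpl13 and Mrps26 differ more between pairs 1 and 3 than between the groups within these pairs.

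Members of the factor-binding stalk of the large subunit showed no common direction. *Mrpl12*, which forms the stalk that recruits translation factors, stood at 127.7, 269.5 and 91.8 CPM in high-pigmented and 150.1, 147.5 and 120.3 CPM in low-pigmented libraries. The pair 2 high-pigmented library was the highest, and the other pairs lay the opposite way. Its log2 fold change was 0.22 ± 0.47 over all libraries and -0.32 ± 0.15 in pairs 1 and 3 (SE; edgeR adjusted p = 0.387). *Mrpl11*, at the base of that stalk, had a log2 fold change of -0.22 ± 0.57 over all libraries and 0.02 ± 0.25 in pairs 1 and 3. Of the genes near the catalytic centre beside *Mrpl3*, *Mrpl2* had -0.52 ± 0.44 and *Mrpl16* 0.85 ± 0.57 over all libraries, and -0.17 ± 0.22 and 0.26 ± 0.25 in pairs 1 and 3. None of these passed the test.

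*Mrpl54*, a mitochondria-specific large-subunit protein, was the only member whose high-pigmented libraries all lay below the low-pigmented ones, 1 of 73 where 3.31% of genes did. It had 79, 0 and 83 counts in the high-pigmented libraries (12.9, 0 and 9.70 CPM) and 116, 144 and 178 in the low-pigmented ones (19.2, 41.2 and 18.7 CPM). Its log2 fold change of -1.76 ± 1.09 over all libraries rests in part on the 0 in pair 2 and was -0.77 ± 0.31 in pairs 1 and 3 (SE; edgeR adjusted p = 0.285). *Mrpl47*, the counterpart of bacterial L29 at the exit tunnel, had the same gap in pair 2: 18.5, 0 and 11.7 CPM against 26.3, 24.6 and 15.7 CPM.

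*Mrpl30* and *Mrpl41* were the members whose high-pigmented libraries all lay above the low-pigmented ones, 2 of 73 where 2.43% of genes did. *Mrpl30*, with a bacterial counterpart, stood at 61.8, 122.8 and 64.5 CPM against 58.2, 61.5 and 57.0 CPM. *Mrpl41*, which is specific to mitochondria, stood at 14.0, 16.3 and 14.3 CPM against 11.1, 7.43 and 10.5 CPM. The groups do not overlap for either, but in *Mrpl30* only pair 2 lies far from its partner. Their log2 fold changes were 0.49 ± 0.41 and 0.61 ± 0.62 over all libraries, and neither passed the test.

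In the small subunit, the counterparts of S12, S2 and S6 did not pass the test, and the means of the first pair differed by less than the spread of the libraries. *Mrps12*, the counterpart of the decoding protein S12, had means of 30.2 ± 2.92 and 28.6 ± 6.38 CPM in high- and low-pigmented cells (SD, n = 3 each). *Mrps2*, the counterpart of S2, had means of 38.0 ± 2.48 and 35.6 ± 11.8 CPM. *Mrps6*, the counterpart of S6, stood at 130.0, 128.6 and 101.5 CPM in high-pigmented and 105.1, 78.3 and 92.0 CPM in low-pigmented libraries. It was higher in each pair, by 0.31, 0.71 and 0.14, and the groups overlap between pairs. Its log2 fold change was 0.39 ± 0.35 over all libraries and 0.21 ± 0.16 in pairs 1 and 3 (SE; edgeR adjusted p = 0.655 in the latter). *Mrps33*, specific to mitochondria, had means of 112.1 ± 45.0 and 96.3 ± 2.96 CPM, the larger spread coming from 164.1 CPM in pair 2.

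The Mrps18 genes are a family of 3 paralogues that take different places in the ribosome. *Mrps18c*, the counterpart of bacterial S18 in the small subunit, stood at 15.3, 1.16 and 20.2 CPM in high-pigmented and 17.8, 10.9 and 17.3 CPM in low-pigmented libraries. *Mrps18a*, which lies in the large subunit, stood at 13.2, 17.5 and 13.0 against 12.1, 30.9 and 12.4 CPM. *Mrps18b*, the mitochondria-specific small-subunit paralogue, averaged 0.5 CPM and was not tested. In both tested paralogues the largest gap between groups is that of pair 2, and in pairs 1 and 3 their log2 fold changes were 0.00 ± 0.30 and 0.09 ± 0.33 (SE). *Mrps36* (KGD4), which is no ribosomal protein, had -0.18 ± 0.38 over all libraries and 0.08 ± 0.19 in pairs 1 and 3.

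Split by origin, small-subunit proteins with bacterial counterparts had a median log2 fold change of -0.07 (3 of 16 above 0), and mitochondria-specific ones 0.11 (6 of 8 above 0). In the large subunit the medians were -0.08 (13 of 30) and -0.05 (6 of 18). For pairs 1 and 3 the 4 medians lay closer, at -0.06, 0.01, -0.01 and 0.00, and the split in the small subunit then held 5 of 16 and 5 of 8 above 0. All these values lie within the range of the all-gene quartiles, -0.40 to 0.32 over all libraries, and the differences between classes were not tested.

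Direction within pairs gave few members that moved one way throughout. Higher in high-pigmented cells in all 3 pairs were *Mrpl19*, *Mrpl30*, *Mrpl41*, *Mrpl45*, *Mrps6*, *Mrps23*, *Mrps30* and *Mrps31*, 8 of 73 where 12.9% of all genes were. Lower in all 3 pairs were *Mrpl3*, *Mrpl33*, *Mrpl36*, *Mrpl39*, *Mrpl47*, *Mrpl54*, *Mrps5* and *Mrps9*, 8 of 73 where 17.2% were. Both shares lie below the background, and the lists were the same under both other scalings tried. *Mrpl19*, the counterpart of bacterial L19, had differences of 0.25, 0.53 and 0.36 and means of 91.5 ± 24.4 against 70.4 ± 19.7 CPM. *Mrps30* had 0.24, 0.99 and 0.22. *Mrpl33*, among the most abundant members, had -0.01, -0.49 and -0.29.

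The members varied less within pairs than genes at large. Among genes with at least 10 counts in both libraries of a pair, the SD of the log2 difference over members was 0.27 in pair 1 (n = 73), 0.90 in pair 2 (n = 62) and 0.40 in pair 3 (n = 73). Over all genes it was 0.48, 1.15 and 0.53. No member differed by more than 1 log2 unit in pair 1, where 4.76% of genes did. In pair 3 there were 2 (*Mrps15* and *Mrpl24*), or 2.74%, where 6.74% of genes did, and in pair 2 there were 14, or 22.6%, where 35.8% did. These spreads are descriptions, since the genes of a library share its depth and composition. The genes at large were not matched to the members on level, and counting error widens log2 differences at low counts. Whether level accounts for the narrower spread of the members was not tested.

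The median difference by pair was -0.16, -0.18 and 0.08 for the large subunit and -0.02, 0.00 and 0.06 for the small subunit, over all tested members. For all genes the medians were 0.02, -0.20 and -0.00. The large subunit was thus a little below the median gene in pair 1 and a little above it in pair 3, with no shared direction. The pair 2 medians include genes at 0 counts, and the small-subunit 0.00 is the value of *Mrps11*, at 0 in both libraries. With at least 10 counts in both libraries, as for the spreads above, they were -0.09 (large), 0.03 (small) and 0.05 (all genes). The sign of the all-gene median in pair 2 thus depends on this limit. Across the 73 members the differences of pairs 1 and 3, which share no library, had a Pearson r of 0.11 and a Spearman rho of 0.03, and 34 of 73 (46.6%) had the same sign. Across 10358 genes these were 0.19, 0.22 and 58.5%.

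**Figure D4:**
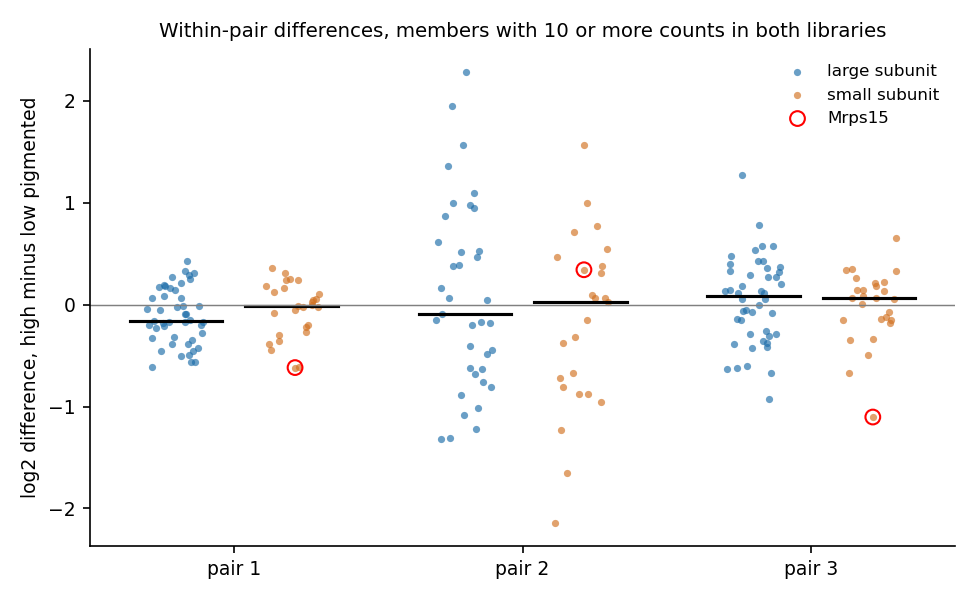
Log2 difference, high minus low pigmented (y axis), of each member with at least 10 counts in both libraries, by pair and subunit (large in blue, small in orange); black bars are medians and the grey line is 0. The spread is narrowest in pair 1 (SD 0.27) and widest in pair 2 (SD 0.90), and the circled Mrps15 is the lowest member in pairs 1 and 3.

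*Mrpl13* and *Mrps26* differed more between pairs 1 and 3 than between the pigmentation groups within either of these pairs. Both were higher in pair 1 than in pair 3 at each pigmentation level, and over 4-fold higher in the fit of both levels together. *Mrpl13*, the counterpart of bacterial L13, stood at 400.7, 89.0 and 74.1 CPM in high-pigmented and 326.6, 180.4 and 96.3 CPM in low-pigmented libraries. *Mrps26*, a mitochondria-specific small-subunit protein, stood at 339.2, 65.8 and 56.7 CPM against 264.4, 154.9 and 72.2 CPM. Both were highest in pair 1, and in both pairs 2 and 3 the low-pigmented library was the higher one. In an edgeR fit of pair 1 against pair 3 with pigmentation as a term, added after seeing the data, pair 1 was higher by 2.10 ± 0.16 (log2, SE; adjusted p = 1.94e-09) for *Mrpl13*. For *Mrps26* it was higher by 2.22 ± 0.17 (edgeR adjusted p = 1.80e-09). The high- and low-pigmented library of a pair serve as its replicates in this fit. The p-values therefore do not measure how levels vary between name endings.

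That fit called 14 of 73 members (19.2%), where 25.5% of 11906 genes were called. Of these, 13 were higher in pair 1 (13.7% of genes) and 1, *Mrpl52*, was lower (11.8% of genes). The other 12 differed by less than 2-fold; *Mrpl37*, for example, was higher by 0.95 ± 0.20 and *Mrpl52* lower by -0.74 ± 0.20 (log2, SE). Only *Mrpl13* and *Mrps26* were both called and over 4-fold, 2 of 73 where 5.59% of genes were. The count was also 14 with DESeq2 size factors and was 16 in limma-voom. It was 9 without the pigmentation term, and 3 to 9 when 1 of the 4 libraries was left out as well. In each of these fits without the term, *Mrpl13* and *Mrps26* kept values of at least 1.91.

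*Mrpl13* and *Mrps26* followed each other closely. Their CPM ratio stayed between 1.16 and 1.35 over the 6 libraries. By the root mean square difference of log2 levels after removing each gene's mean, each was the other's nearest of 7804 genes compared (0.084). The next nearest included *Hdac1*, *Zbtb8os*, *Zfp316*, *Ankfy1*, *Lztr1* and *Rpap1*. Transcript sequence bears on how such counts can be read: in GENCODE vM21 both genes have a transcript that shares a stretch of at least 100 bases at 95% identity or more with many other genes. Such stretches are not particular to them: *Mrpl20*, *Mrps10* and *Mrpl23* share stretches with 199, 154 and 122 genes, and their log2 differences between pairs 1 and 3 were 0.00, 0.78 and -0.17. For *Mrpl13* these are 48 genes, through a retained-intron transcript and up to 204 bases. For *Mrps26* they are 67 genes, up to 433 bases. *Mrpl13* and *Mrps26* have no such stretch with each other. Of the 12 nearest other genes, *Hdac1* and *Gmeb1* have such a stretch with *Mrpl13* or *Mrps26*, where 72 of the genes compared (0.923%) do. Reads from shared stretches cannot be assigned with certainty, so the counts of both genes are uncertain, and the part of shared sequence in their pattern was not tested.

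Mitochondrial ribosomal proteins whose symbols fall outside the rule held no call either. The 6 genes were *Dap3*, the GTP-binding protein of the small subunit, *Ptcd3*, *Aurkaip1*, *Chchd1*, *Gadd45gip1* and *Ict1*, the large-subunit protein that rescues stalled ribosomes. None was called in the 4 fits made for gene groups (all libraries, pair block, pairs 1 and 3, and the block with sample weights), and their median log2 fold change was -0.12 over all libraries (2 of 6 above 0) and -0.09 in pairs 1 and 3 (0 of 6 above 0, where 36 of 73 members were). The difference from the members was not tested. *Gadd45gip1* had 210, 8 and 138 counts in high-pigmented and 192, 180 and 263 in low-pigmented libraries, with within-pair log2 differences of 0.11, -3.37 and -0.76.

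Genes that build or serve the mitochondrial ribosome likewise held no call in the edgeR fits over all libraries, with the pair block, or in pairs 1 and 3. Of 26 assembly and ribosomal RNA modification genes, 25 were tested over all libraries, with a median of -0.00, and all 26 in pairs 1 and 3, with 0.07. *Ddx28*, an RNA helicase of large-subunit assembly, had 120, 0 and 256 against 70, 0 and 172 counts and 0.73 ± 0.27 in pairs 1 and 3 (SE; edgeR adjusted p = 0.233). *Rnmtl1*, a methyltransferase of the large ribosomal RNA, had 56, 0 and 34 against 96, 0 and 124 counts and -1.25 ± 0.39 (adjusted p = 0.138, edgeR). The 12 translation factors had medians of -0.40 and -0.17, the former with a pair 2 median of -2.08. The initiation factor *Mtif3* had 1.06 ± 0.45 and the release factor *Mtrf1l* -1.32 ± 0.46 in pairs 1 and 3. The 17 mitochondrial tRNA synthetases (15 tested over all libraries) had medians of -0.30 and -0.06. The 8 genes of mitochondrial transcription and mRNA stability had -0.29 and -0.06, among them *Tfam*, which packages mitochondrial DNA, with -0.55 ± 0.19 (adjusted p = 0.192, edgeR, pairs 1 and 3).

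The messenger RNAs that this ribosome translates had values above 0 and most cytosolic ribosomal protein genes values below 0, with calls in pairs 1 and 3 but none over all libraries or with the pair block. All 13 mitochondrially encoded messenger RNAs had values above 0, with a median log2 fold change of 1.27 over all libraries and 0.48 in pairs 1 and 3. In the latter fit 8 of 13 rose (0.932% of genes were called higher), among them *mt-Co1* by 0.76 ± 0.11 (SE; edgeR adjusted p = 0.00067). Over all libraries and with the pair block 0 of 13 were called, and in the block with sample weights 2 were (*mt-Nd6* and *mt-Co1*). The ribosomal RNAs *mt-Rnr1* and *mt-Rnr2* had 0.29 ± 0.11 and 0.41 ± 0.11 there, without passing the test (edgeR adjusted p = 0.257 and 0.0668). Of 84 cytosolic ribosomal protein genes tested, 8 fell in pairs 1 and 3 (0.37% of genes were called lower), with a median of -0.34. Over all libraries their median was -0.35, with 0 of 84 called there and with the pair block, and 1 (*Rps7*) in the block with sample weights. The 75 nuclear genes of oxidative phosphorylation subunits tested over all libraries had a median of -0.02, with 0.02 for all 77 in pairs 1 and 3, and none was called. These groups were measured in the same libraries, and differences between them and the members were not tested.

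**Figure D5:**
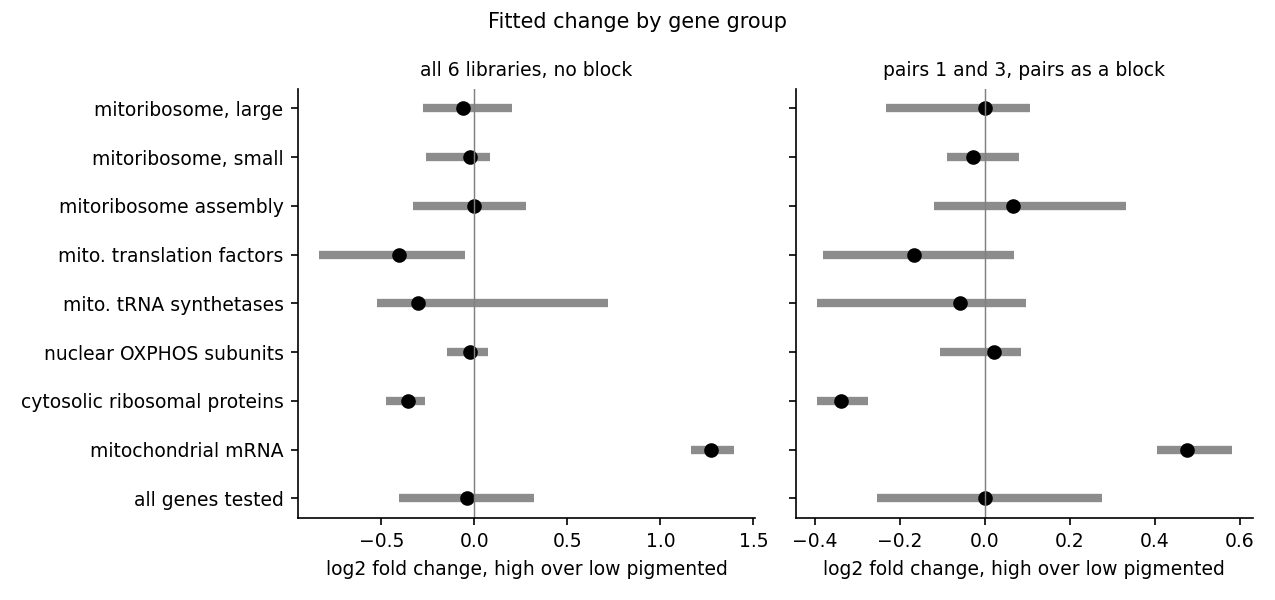
Median (points) and quartile range (bars) of the fitted log2 fold change, high over low pigmented, by gene group, over all 6 libraries (left) and in pairs 1 and 3 with the pairs as a block (right). The mitoribosome subunits lie at 0 or just below it, cytosolic ribosomal proteins at -0.35 and -0.34, and mitochondrial messenger RNAs at 1.27 and 0.48; the x axes differ in range.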

How the data were processed

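RNA from sorted B16-F10 cells was sequenced from the 3′ end with QuantSeq forward libraries on a NextSeq 500, per the labels' protocols. The authors deposited 1 table of raw HTSeq counts, per its name and tally rows, with a row for each gene and a column for each library. STAR and GRCm38 are named per the submitters' processing notes. The aligner version, annotation, counting mode and use of strand are not given in the sources used here. No molecular identifiers are mentioned, so copies of 1 molecule cannot be told from independent reads. Tally rows stayed out of library sizes; reads in no gene were 12.4% to 29.5% and ambiguous reads 0.487% to 2.51% of tallied reads.

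Members and lists were chosen with earlier results of these data known. All genes were fitted together with edgeR 4.0.16 (quasi-likelihood, robust, filterByExpr at a minimum count of 10, TMM) in R 4.3.3, with 2 groups and no covariate, and Benjamini-Hochberg adjustment at 0.05. Within-pair differences are log2 CPM with a prior count of 2. Deviations from group means correlated within pairs 1, 2 and 3 at 0.466, 0.316 and 0.422, all above the minimum of 0.1, so libraries with a shared name ending were treated as pairs. Correlations across endings were not computed, so these values do not establish the pairing. No libraries were duplicates (chi-square per degree of freedom at least 13.5). Alternatives were the replicate block, with and without pair 2, DESeq2 1.42.0, limma-voom (limma 3.58.1), voom sample weights with the block, other scalings, no filter and leaving out each library. Single members were named by adjusted p in any of 3 fits, by smallest p, highest level or steadiest within-pair direction, by role, or for counts of 0. *Mrpl37*, *Mrpl52*, *Mrpl24*, *Mrps25*, *Mrpl20*, *Mrps10*, *Mrpl23*, *Mrpl35* and *Gadd45gip1* were added after their values were seen. The edgeR script was tested on simulated data. For the comparison over all 6 libraries the simulation used a smaller spread than the fit found. It therefore does not show how that fit performs on these data. Stretches shared between transcripts were found with BLAST+ 2.17.0.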

Additional observations from a re-analysis of the deposited data

How the results depend on the processing

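Counts of 3 libraries a group, with pair 2 far from the others, limit what can be detected, and genes at low counts are poorly measured in pair 2. No member was called over all 6 libraries, with the replicate block, without the filter, under the other scalings, in DESeq2, limma-voom, the weighted fit, or with any library left out (0 to 0). The replicate block without pair 2 called 1, *Mrps15*, and the block changed no other call. Leaving out 1 library moved the large-subunit median between -0.20 and 0.05, the small-subunit median between -0.19 and 0.0633, and the large minus small median between -0.17 and 0.00575. Members called between pairs 1 and 3 numbered 14 with DESeq2 size factors and 16 in limma-voom. They numbered 9 without the pigmentation term, and 3 to 9 with 1 library left out as well. Signs were compared for the members named by the rules above only. Changes of sign also occurred outside them, as in *Mrpl35*, with 0.50 over all libraries, -0.39 without pair 2 and -0.28 in the weighted block fit. With pair 2 left out of the block fit and in the weighted block fit, the log2 fold changes of some named members without a call changed sign. The values were 0.0197 and 0.00734 for *Mrpl11*, -0.32 and -0.24 for *Mrpl12*, -0.0287 and -0.0122 for *Mrps2*, -0.0678 and -0.0545 for *Mrps12*, and 0.0859 and 0.0592 for *Mrps18a*. They were 8.17e-05 and 0.00799 for *Mrps18c*, 0.0099 and 0.0783 for *Mrps26*, -0.17 and -0.11 for *Mrps33*, and 0.0770 and 0.0622 for *Mrps36*. *Mrpl13* changed sign in the weighted fit alone (0.0241) and *Mrpl49* without pair 2 alone (0.00555). With 1 library left out at a time, ranges that cross 0 among the named members were -0.45 to 0.11 (*Mrpl11*), -0.34 to 0.50 (*Mrpl12*), -1.31 to 0.46 (*Mrpl13*), -0.61 to 0.0188 (*Mrpl33*), -0.0901 to 0.39 (*Mrps2*) and -0.0397 to 0.28 (*Mrps12*). They were -0.89 to 0.0227 (*Mrps15*), -0.56 to 0.24 (*Mrps18a*), -0.86 to 0.21 (*Mrps18c*), -1.43 to 0.46 (*Mrps26*), -0.16 to 0.36 (*Mrps33*) and -0.32 to 0.0207 (*Mrps36*). The cause of these shifts was not tested.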
